A study of Mus musculus with 8 samples.

Results

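The expression of 10 genes of cytotoxic lymphocytes was followed in invading macrophages and resident microglia sorted from ischemic mouse brain: the granule proteins Gzma, Gzmb, Prf1 and Nkg7, the receptors Ncr1, Klrd1, Klrk1 and Klrb1c, and the transcription factors Eomes and Tbx21. They were taken by name from the gene names in the array files, and they are 10 of 22440 named genes, measured by 13 of 55681 probes. Expression was measured in C57BL/6 mice that carried transplanted bone marrow and had undergone 30 min of focal brain ischemia (MCAo, occlusion of the middle cerebral artery) and 7 days of reperfusion, with no other treatment. Each of 4 animals, A to D, gave 1 sample of GFP+ cells, labelled resident microglia, and 1 of RFP+ cells, labelled invading macrophages, and these 8 samples were hybridised to 8 one-colour Agilent arrays (replicates 1 to 4 are animals A to D). The labels name no sorting marker other than the fluorescent protein and do not say which compartment carried it, so that a sample holds whatever cells had that colour. RNA was amplified by a global PCR before labelling. No uninjured brain was among the samples, and age was not given.

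Natural killer cells and cytotoxic T cells kill by releasing granules. Perforin (Prf1) opens a way into the target cell, and the granzymes, which are serine proteases (Gzma, Gzmb), enter and start cell death. Whether the granules are released depends on receptors at the surface: Ncr1 (NKp46) and Klrk1 (NKG2D) activate, Klrd1 (CD94) pairs with NKG2 proteins to read a class I molecule, and Klrb1c (NK1.1) is the marker used to identify natural killer cells in this strain. Tbx21 (T-bet) and Eomes direct the development of these lymphocytes. In the ischemic brain natural killer and T cells are known to arrive together with monocytes.

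The sequence just upstream of the start site of these genes is shown because the members were read together and because Runx3, a regulator of cytotoxic lymphocytes, was among the genes higher in the macrophages. RefSeq windows of build GRCm38.p6 were matched for 9 of the 10 genes, all but Klrd1, and the 250 bases before each start site were searched on both strands for 3 motifs, whose matches did not overlap: TGTGGT or ACCACA (RUNX), GGTGTGA or TCACACC (T-box) and TTCNNNGAA (STAT). The granule genes and Ncr1 are printed here 5′ to 3′ on the strand of the gene, with motif matches in capitals; Ncr1 has 2 annotated starts and the first is given.
Gzma, chr13:113100982-113101231, minus strand: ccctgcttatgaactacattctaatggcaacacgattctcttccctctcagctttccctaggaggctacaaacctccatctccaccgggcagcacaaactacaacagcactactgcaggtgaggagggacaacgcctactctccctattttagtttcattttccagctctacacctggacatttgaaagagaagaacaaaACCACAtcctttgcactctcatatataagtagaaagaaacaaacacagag
Gzmb, chr14:56262335-56262584, minus strand: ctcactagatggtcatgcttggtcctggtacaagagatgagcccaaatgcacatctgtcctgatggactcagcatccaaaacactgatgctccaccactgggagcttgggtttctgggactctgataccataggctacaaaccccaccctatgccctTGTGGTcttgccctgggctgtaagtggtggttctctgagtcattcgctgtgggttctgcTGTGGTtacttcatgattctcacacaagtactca
Prf1, chr10:61297586-61297835, plus strand: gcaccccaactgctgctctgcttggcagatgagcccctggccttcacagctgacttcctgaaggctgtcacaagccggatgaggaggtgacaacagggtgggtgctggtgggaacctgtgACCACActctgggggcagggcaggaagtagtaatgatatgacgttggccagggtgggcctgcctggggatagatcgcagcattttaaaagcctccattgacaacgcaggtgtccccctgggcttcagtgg
Nkg7, chr7:43436888-43437137, plus strand: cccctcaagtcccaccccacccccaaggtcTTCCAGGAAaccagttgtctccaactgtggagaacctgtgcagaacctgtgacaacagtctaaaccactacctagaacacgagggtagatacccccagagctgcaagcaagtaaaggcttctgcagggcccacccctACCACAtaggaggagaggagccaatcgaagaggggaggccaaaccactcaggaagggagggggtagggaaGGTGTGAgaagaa
Ncr1, chr7:4337465-4337714, plus strand: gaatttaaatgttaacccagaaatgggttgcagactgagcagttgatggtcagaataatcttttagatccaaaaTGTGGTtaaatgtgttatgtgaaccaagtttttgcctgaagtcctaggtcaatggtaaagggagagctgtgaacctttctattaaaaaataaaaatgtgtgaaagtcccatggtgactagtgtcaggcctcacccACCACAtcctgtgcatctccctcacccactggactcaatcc

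A RUNX match was present in 7 of the 9 genes, against 15.9% of the 27025 genes in the RefSeq table, with windows of the same length. It began 50 bases before the start in Gzma, 93 and 34 bases before it in Gzmb, 130 in Prf1, 83 in Nkg7, and 176 and 41 in Ncr1. Klrb1c and Klrk1 held 1 match each, at 89 and 129 bases. The windows of Eomes and Tbx21 held none of the 3 motifs. A T-box match was found in 1 gene, Nkg7, 13 bases before the start (3.84% of all genes), and so was a STAT match, 220 bases before it (8.13% of all genes). These matches describe the letters of short windows and show no binding.

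**Figure D1:**
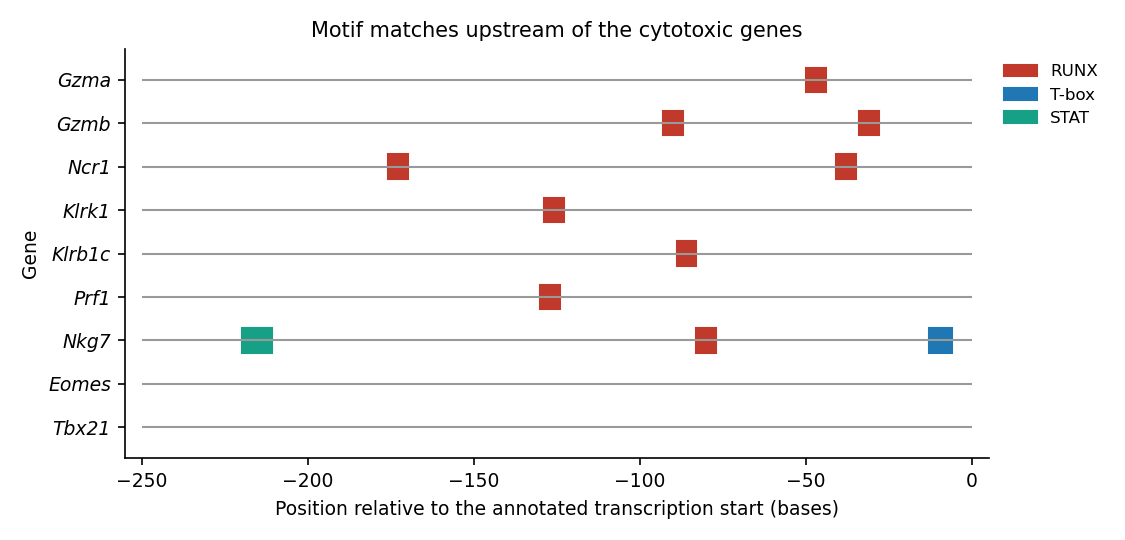
Motif matches in the 250 bases before the start site of the 9 matched genes. The horizontal axis is the position relative to the annotated start in bases, each line is 1 gene, and boxes mark matches to the RUNX, T-box and STAT letters on either strand. RUNX matches lie in 7 genes at 34 to 176 bases before the start, and Nkg7 holds a match to all 3 motifs.

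All values below are log2 processed signals minus the 75th percentile of their array, so that 0 is the brightness of the probe at that percentile. Differences are macrophages minus microglia. A probe counted as measured on an array when the scanner software marked it well above background; the lowest such signal of an array, its floor, ran from -5.00 to -3.42. Genes were tested with limma when 4 or more of the 8 arrays measured a probe in this way, which held for 13221 genes, and called at a Benjamini-Hochberg adjusted p under 0.05. Arrays were well above background for 45.7% to 57.1% of probes. Macrophage replicate 2 stood apart, correlating with the other macrophage arrays at 0.828 to 0.867 across tested genes where those correlated with each other at 0.940 to 0.960. Most results of the members are therefore given with and without it. List counts that changed without it are given beside the list or at the end. Where a group had no array well above background, a fold is a bound, taken against the higher of the array floor and the signal, and is written "at least". The number of arrays limits the precision, and the smallest p that an exact permutation test of 4 against 4 arrays can give is 0.0286.

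Signals of the cytotoxic genes were found mainly on the macrophage arrays. Of the 13 probes, 9, 12, 11 and 9 were well above background on macrophage replicates 1 to 4, and 4, 4, 6 and 4 on microglia replicates 1 to 4. No member probe was saturated or left out on any array. Of the 10 genes, 6 were bright enough to be tested. Of these 6, Gzmb, Ncr1 and Klrd1 were called higher in macrophages and none was called lower, where 3.01% of all tested genes were called higher and 4.3% lower. With the animal as a block the same 3 were called (1.79% of all genes), as they were without macrophage replicate 2 (9.44%). The filter bears on this count: Gzmb passed it only through the macrophage arrays, so that it had to differ, and Gzma, Klrk1, Klrb1c and Eomes were not tested. Every macrophage array exceeded every microglia array for 6 of the 13 probes, against 4.36% of all probes, and 4 probes were well above background on no microglia array and on at least 3 macrophage arrays, against 0.476%. Among the 6 tested genes the groups did not overlap for 4, against 8.43% of all tested genes. The level of a transcript in a sorted sample depends both on how many cells carry it and on how much each holds, and these cannot be told apart here.

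**Figure D2:**
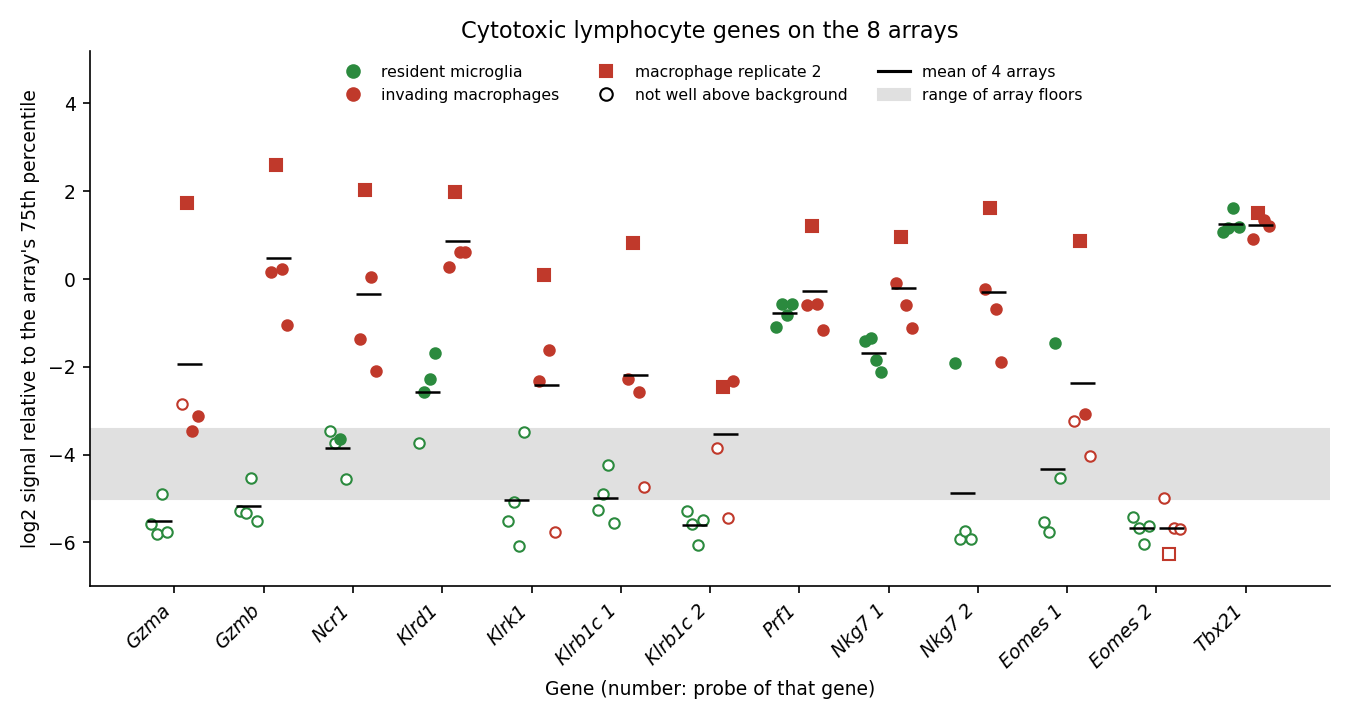
Log2 signal (relative to the 75th percentile of each array, vertical axis) of the 13 probes of the 10 genes on the 8 arrays. Each point is 1 array, green for microglia and red for macrophages, squares are macrophage replicate 2, open symbols were not well above background, bars are means of 4 arrays and the grey band spans the array floors of -5.00 to -3.42. Gzmb, Ncr1 and Klrd1 separate the groups, Prf1 and Tbx21 do not, and 10 of the 13 probes are highest on macrophage replicate 2.

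Gzmb, the granzyme that cleaves caspases, had the largest fitted difference of the 6 tested genes. It measured -5.28, -5.33, -4.52 and -5.51 on the microglia arrays and 0.17, 2.60, 0.24 and -1.05 on the macrophage arrays. No microglia array was well above background and all 4 macrophage arrays were, with no overlap between the groups. Gzmb was at least 19.8-fold higher in macrophages (fitted difference 5.65, 95% confidence interval 4.08 to 7.22, adjusted p = 0.00218, limma; higher in 4 of 4 animals). Without macrophage replicate 2 the bound was 12.1-fold (adjusted p = 0.000307). It was called whichever array was left out. With normexp background in place of the scanner software's the difference was 2.45 (adjusted p = 0.0186), so that the size and the bound depend on how background was taken off. The arrays lay on 2 slides, and the difference was 5.56 with the slide as a block (adjusted p = 0.00796). It was 5.47 on the slide with 3 arrays, of which 1 held macrophages and is assumed to vary like the others (adjusted p = 0.0207), and 5.61 on that with 5 arrays, where it missed the threshold (adjusted p = 0.156). Its probe lies at chr14:56877916-56877975 in build mm9, the build of all probe positions below.

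Gzma, the tryptase among the granzymes, was dim outside 1 array. Its probe (chr13:113884035-113884094) measured -5.57, -5.81, -4.89 and -5.76 in microglia and -2.85, 1.74, -3.47 and -3.12 in macrophages. It was well above background on macrophage replicates 2, 3 and 4 and on no microglia array, and it was not tested. The groups did not overlap (two-sided exact permutation p = 0.0286 on signals raised to the floor, the smallest possible), and Gzma was at least 3.70-fold higher in macrophages. Macrophage replicate 2 lay 4.59 above the next macrophage array, and without it the bound was 1.59-fold. In a fit without the filter on dim genes Gzma missed the threshold (adjusted p = 0.128, limma).

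Prf1, the pore-forming protein, was well above background on all 8 arrays. It measured -1.10, -0.57, -0.82 and -0.58 in microglia and -0.59, 1.21, -0.57 and -1.16 in macrophages. The groups overlapped, with macrophage replicate 2 at least 1.78 above every other array. The difference was 0.49 (95% confidence interval -0.60 to 1.58, adjusted p = 0.571, limma) and -0.00969 without that array (adjusted p = 0.983). The interval reaches 1.58, so that equal levels are not shown. The probe of Prf1 lies at chr10:60766941-60767000.

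Nkg7, a membrane protein of cytotoxic granules, was read by 2 probes 322 bases apart. The brighter probe (chr7:50693530-50693589) measured -1.40, -1.34, -1.84 and -2.13 in microglia and -0.08, 0.95, -0.59 and -1.12 in macrophages, and the groups did not overlap. It was well above background on every array. Its difference was 1.47, or 2.77-fold (95% confidence interval 0.47 to 2.47), and it missed the threshold (adjusted p = 0.0814, limma; higher in 4 of 4 animals). It passed with arrays centred on their medians (adjusted p = 0.0394), without macrophage replicate 4 (0.0489), and with the 2 probes averaged (difference 3.02, adjusted p = 0.0321). The other probe (chr7:50693148-50693207) measured -1.92, -5.91, -5.74 and -5.91 in microglia, well above background on 1 array, and -0.24, 1.63, -0.69 and -1.88 in macrophages. It was 8.37-fold higher with microglia signals below the floor raised to it, and 5.37-fold higher without macrophage replicate 2 (limma over 29359 probes, adjusted p = 0.0364 with all arrays, where 2.34% of probes were called higher). On this second probe microglia replicate 1 lay only 0.03 below the lowest macrophage array.

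Among the receptors, Ncr1, an activating receptor found almost only on natural killer and innate lymphoid cells, was higher in macrophages. It measured -3.46, -3.74, -3.65 and -4.56 in microglia and -1.37, 2.04, 0.04 and -2.10 in macrophages (probe at chr7:4296176-4296235). All 4 macrophage arrays and 1 microglia array were well above background, and the groups did not overlap. Ncr1 was 9.55-fold higher with microglia signals below the floor raised to it, and 5.50-fold without macrophage replicate 2. The fitted difference was 3.51 (95% confidence interval 1.67 to 5.35, adjusted p = 0.0354, limma; higher in 4 of 4 animals) and 2.71 without that array (adjusted p = 0.0124). The call rested on the array set: it was lost in 6 of the 8 fits that left out 1 array, namely each microglia array (adjusted p = 0.0714, 0.0904, 0.0833 and 0.0995) and macrophage replicates 1 and 3 (0.0537 and 0.0869). It was also lost with the slide as a block (3.43, adjusted p = 0.0752), with normexp background (1.79, adjusted p = 0.0812), with a percentile over the probes that every array detected (0.0534) and without the filter on dim genes (0.0571), and the difference was 2.23 on the slide with 3 arrays (adjusted p = 0.144) and 4.10 on the other (0.298).

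Klrd1 (CD94), the common partner of the NKG2 receptors, was also higher in macrophages. Its standard deviation was 0.75 among the macrophage arrays, against 1.53 for Gzmb and 1.82 for Ncr1. Among the microglia arrays it was the wider, at 0.86 against 0.44 and 0.49. It measured -3.73, -2.57, -2.27 and -1.68 in microglia and 0.28, 1.98, 0.62 and 0.62 in macrophages (probe at chr6:129548612-129548671). Well above background were 3 microglia arrays and all 4 macrophage arrays, and the lowest macrophage array lay 1.96 above the highest microglia array. Klrd1 was 10.9-fold higher in macrophages (difference 3.44, 95% confidence interval 2.28 to 4.61, adjusted p = 0.00576, limma; higher in 4 of 4 animals). Without macrophage replicate 2 it was 8.41-fold higher (adjusted p = 0.00464), and it was called whichever array was left out. With normexp background the difference of Klrd1 was 2.18 (adjusted p = 0.00332), and with the slide as a block 3.19 (adjusted p = 0.00853); on the single slides it was 3.43 and 3.05 and missed the threshold (0.0923 and 0.129).

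Klrk1 and Klrb1c were not tested, and their groups overlapped. Klrk1 (NKG2D; chr6:129561864-129561923) measured -5.51, -5.08, -6.08 and -3.48 in microglia, never well above background, and -2.33, 0.09, -1.62 and -5.76 in macrophages. It was well above background on macrophage replicates 1 to 3, while replicate 4 lay among the microglia. The bound was 2.60-fold, and 1.46-fold without macrophage replicate 2 (two-sided exact permutation p = 0.1143).

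Klrb1c has 2 probes, 5099 bases apart, and neither was well above background on a microglia array. The brighter (chr6:128734770-128734829) measured -5.25, -4.89, -4.23 and -5.55 in microglia and -2.28, 0.83, -2.57 and -4.75 in macrophages, where replicate 4 was not well above background. It was at least 3.08-fold higher, and at least 1.53-fold without macrophage replicate 2 (two-sided exact permutation p = 0.1143). The other (chr6:128729611-128729670) measured -5.28, -5.59, -6.06 and -5.49 in microglia and -3.86, -2.47, -5.45 and -2.33 in macrophages, and was well above background on replicates 2 and 4. Its bound was 1.22-fold, and 0.957-fold without macrophage replicate 2, so that no excess is shown without that array. In the fit without a filter neither Klrk1 nor Klrb1c passed (adjusted p = 0.304 and 0.207, limma). Klrb1c has near-identical relatives in the same gene complex. Whether its probes, or those of the other Klr genes, read only their own gene was not tested.

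Neither transcription factor was called. Tbx21 measured 1.06, 1.15, 1.63 and 1.19 in microglia and 0.91, 1.50, 1.34 and 1.21 in macrophages (chr11:96959417-96959476), and was well above background on all 8 arrays. The groups lay within each other, with a difference of -0.02 (95% confidence interval -0.55 to 0.51, adjusted p = 0.972, limma). That interval leaves out differences of the size called for Gzmb, Ncr1 and Klrd1. Its sign turned under median centring (0.19), without microglia replicate 3 (0.10) and without macrophage replicate 1 (0.09).

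Eomes was near background, and its probes lie 704 bases apart. The first (chr9:118394425-118394484) measured -5.54, -5.75, -1.45 and -4.53 in microglia and -3.24, 0.87, -3.07 and -4.03 in macrophages. It was well above background on microglia replicate 3 and on macrophage replicates 2 and 3, the groups overlapped, and the fit without a filter gave adjusted p = 0.53 (limma). The other probe was well above background on 0 of the 8 arrays.

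**Figure D3:**
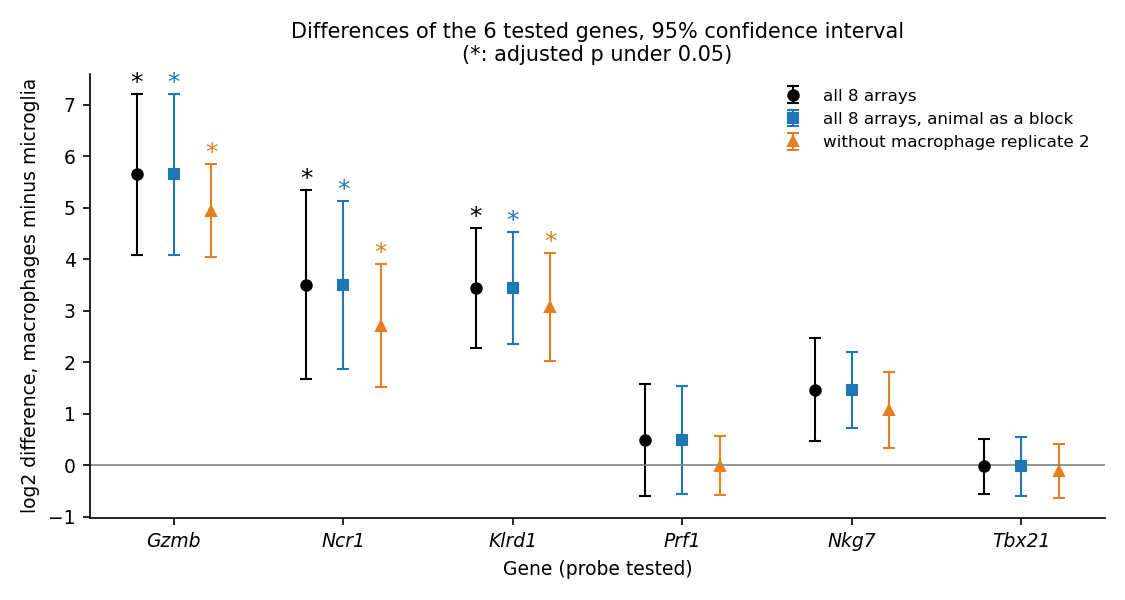
Difference of mean log2 signal, macrophages minus microglia (vertical axis), for the 6 tested genes, with 95% confidence intervals from limma. Black circles use all 8 arrays, blue squares add the animal as a block, orange triangles leave out macrophage replicate 2, and an asterisk marks an adjusted p under 0.05. Gzmb, Ncr1 and Klrd1 pass in all 3 fits, at differences of 2.71 to 5.65, while the intervals of Prf1 and Tbx21 include 0.

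Most of these genes were brightest on 1 array. Of the 13 probes, 10 were highest of all 8 arrays on macrophage replicate 2, against 13.8% of all probes. The summed linear level of the 10 genes was 3.22 to 4.74 on the microglia arrays (1 is the 75th percentile of an array) and 6.86, 29.2, 8.33 and 5.70 on macrophage replicates 1 to 4. Over the 6 tested genes the median difference was 2.45, and 1.90 without macrophage replicate 2, where the median of all 13221 tested genes was 0.04 and 0.11. The 10 genes outside the lists whose pattern over the 8 arrays was most like the mean of the 6 tested members were Nedd4, Sptbn1, Nxpe4, Ptprb, Foxq1, Icam2, Apcdd1, Egln1, Nos3 and Net1 (Pearson's r = 0.979 to 0.990). The members, which are part of that mean, correlated with it at 0.986 for Gzmb, 0.978 for Ncr1, 0.936 for Klrd1, 0.932 for Nkg7, 0.725 for Prf1 and 0.226 for Tbx21. All these values share the 8 arrays, the division into groups and macrophage replicate 2. Ptprb, a phosphatase of blood vessel endothelium, measured 1.50, 6.62, 2.79 and -2.21 on the macrophage arrays, and Nos3, the endothelial nitric oxide synthase, -1.94, 3.49, -0.67 and -3.10.

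Of 20 other genes of the killing granule, 13 were tested, and 1 was called higher and none lower, with a median difference of 0.40. The called gene was Stx11, a syntaxin needed for granule fusion, which was 4.89-fold higher in macrophages (adjusted p = 0.00329, limma) and also called with the animal as a block. The proteoglycan core Srgn, which packs granules, differed by 0.57 (adjusted p = 0.191), and Ctsc, the protease that activates granzymes, by 0.43 (adjusted p = 0.474; 0.0355 without macrophage replicate 2). Rab27a, which docks granules, differed by -1.01 (adjusted p = 0.0761) and passed in 5 of 23 alternatives. Gzmk and Gzmm were well above background on all 8 arrays and missed the threshold (differences 0.47 and 0.40), and Ifng was well above background on none.

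Of 6 inhibitors of granzymes, 3 were tested and 1 was called. Serpinb6b, a serpin of the family that blocks granzymes, measured -2.66, -2.29, -2.59 and -3.29 in microglia and -0.49, 2.08, -0.33 and -0.86 in macrophages, and was 6.99-fold higher (adjusted p = 0.0286, limma), or 4.43-fold without macrophage replicate 2. It was no longer called in 6 of 8 fits that each left out an array (adjusted p up to 0.0859), with the slide as a block (0.0629), with normexp background and with the percentile over detected probes. Serpinb9, the inhibitor of Gzmb, was well above background on 2 arrays of each group and differed by 0.84 (adjusted p = 0.633), and Serpinb6a differed by 1.44 (adjusted p = 0.258).

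Of 36 other natural killer receptors and adaptors, 34 had a probe and 19 were tested. Called higher were 4 and lower none, or 5 higher with the animal as a block and 7 without macrophage replicate 2. The median difference was 1.07, and 0.83 without that array. Klra6, a Ly49 receptor, measured -5.53, -5.74, -6.23 and -5.66 in microglia and -1.28, 0.39, -2.76 and -0.69 in macrophages, and was at least 6.64-fold higher (adjusted p = 0.00258, limma). Klra9, another Ly49 receptor, was 5.61-fold higher (adjusted p = 0.00998), and Klrb1f, a relative of Klrb1c, at least 4.24-fold higher, or 2.56-fold without macrophage replicate 2 (adjusted p = 0.0108 with all arrays). Klra6 and Klrb1f were well above background on no microglia array and on all 4 macrophage arrays, so that, like Gzmb, they had to differ to be tested. Sh2d1b1 (EAT-2), a signalling adaptor of natural killer cells and also of other blood cells, was 4.65-fold higher and measured 3.35 to 3.96 on the macrophage arrays (adjusted p = 0.00303). These 4 genes kept their calls whichever array was left out, but all 4 missed the threshold on the slide with 5 arrays. Sh2d1b1 and Klra9 missed it on the slide with 3 arrays as well, of which 1 held macrophages. Klra9 also missed it with the animal and the slide as blocks together. Klrb1f also missed it with normexp background (adjusted p = 0.102, limma) and with signals raised to the floor before the fit (0.0901). The adaptors Tyrobp and Fcer1g, which microglia and macrophages also use, both differed by -0.11 (adjusted p = 0.888), and the sign turned in 4 and 6 of the 23 alternatives.

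Of 22 ligands of these receptors, 15 had a probe, 12 were tested and 1 was called. Clec2i, a ligand of the Klrb1 family, was 4.84-fold higher in macrophages (adjusted p = 0.0224, limma), and was no longer called in 6 of 8 fits that each left out an array (adjusted p up to 0.0696). Clec2d, the ligand of an inhibitory member of that family, differed by 0.84 (adjusted p = 0.428). For Klrk1, the ligand Raet1e differed by 2.38 (adjusted p = 0.173), H60b by 1.18 (0.283) and Ulbp1 by -0.63 (0.544). For Klrd1, the class I molecule H2-T23 differed by 0.18 (adjusted p = 0.716), and B2m, the light chain of class I molecules, by 0.07 (0.899). None of these groups is shown to be equal by such a p.

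Of 14 cytokines that attract or activate natural killer cells, 8 were tested, and 1 was called lower and none higher, with a median difference of -0.20. Ccl3, a chemokine that draws lymphocytes and monocytes, measured 4.60, 3.57, 3.61 and 3.87 in microglia and 1.58, 0.87, 2.09 and 2.78 in macrophages, and was 4.24-fold lower (adjusted p = 0.0241, limma). It missed the threshold with the animal as a block (0.0538), with the slide as a block (0.0545) and in 6 of the 8 fits without 1 array. Ccl4 differed by -2.003 (adjusted p = 0.0561) and passed in 9 of 23 alternatives, among them quantile normalization (0.032) and the fit without macrophage replicate 2 (0.0264). Il18 differed by -0.96 (adjusted p = 0.119) and Il15, the survival factor of natural killer cells, by -0.31 (0.429). Cxcl9 and Cxcl11, ligands of Cxcr3, differed by 0.77 and -0.08 (adjusted p = 0.344 and 0.837). Ccl5, which cytotoxic lymphocytes also secrete, differed by -0.00686 (adjusted p = 0.992).

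Of 14 receptors for such cytokines, 11 were tested, and 2 were called higher and none lower. Ccr2, the chemokine receptor of monocytes that some natural killer cells also carry, was 5.53-fold higher (adjusted p = 0.000756, limma). Cxcr3, a receptor of activated lymphocytes, was 3.32-fold higher with signals below the floor raised to it (adjusted p = 0.0234), and was not called with the animal as a block (0.0886), with normexp background or in 5 of the 8 fits without 1 array. Il2rb, a chain of the receptors for Il2 and Il15, differed by 1.41 (adjusted p = 0.155), and Il15ra, which presents Il15, by -0.27 (0.46). Cx3cr1, the fractalkine receptor of microglia and of mature natural killer cells, differed by -1.17 (adjusted p = 0.0647) and passed in 7 of 23 alternatives, among them quantile normalization (0.0109) and the fit without macrophage replicate 2 (0.0245).

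Of 13 other transcription factors of cytotoxic lymphocytes, 12 had a probe and 7 were tested. Runx3 was the 1 gene called, 5.05-fold higher in macrophages (adjusted p = 0.0193, limma). It measured -0.31, -0.56, 0.64 and 0.66 in microglia and 2.75, 1.37, 3.23 and 2.42 in macrophages, so that, unlike most members, it was lowest in macrophages on replicate 2. The call of Runx3 was lost without microglia replicate 1 or 2 or macrophage replicate 1 (adjusted p up to 0.0625). Stat4, the transducer of Il12 signals, differed by 3.25 and missed the threshold (adjusted p = 0.0553), which it passed in 5 of 22 alternatives, among them normexp background and median centring (0.0139 and 0.0375). Ets1 and Zeb2, which act in the growth and maturation of natural killer cells, differed by -1.15 and 0.93 (adjusted p = 0.42 and 0.372); both passed without macrophage replicate 2 (0.00564 and 0.00886).

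Markers of other cells were read on the same arrays. Besides the members, 5 markers of natural killer cells were listed (Klra8, Klrc1, Klre1, Xcl1 and Ccl5). Of these, 2 were tested and neither was called: Klra8, which measured -4.81, -5.64, -3.72 and -5.54 in microglia and -2.74, 1.03, -2.80 and -1.76 in macrophages, differed by 3.36 (adjusted p = 0.0512, limma; 0.0169 without macrophage replicate 2), and Ccl5 is given above. Their median was -2.79, 1.03, -2.80 and -1.76 on macrophage replicates 1 to 4 and -5.85 to -3.91 on the microglia arrays. Xcl1, a chemokine of natural killer and T cells, was well above background on 2 macrophage arrays and no microglia array.

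Of 21 T cell markers 11 were tested, and none was called higher and 1 lower, with a median difference of -0.07. Without macrophage replicate 2, 1 was called higher and 1 lower, with a median difference of 0.02. The fit with the animal and the slide as blocks together also called 1 higher, as did the fit without the filter on dim genes. Cd3d and Cd3g were well above background on 1 macrophage array and on no microglia array, Cd3e on 1 macrophage and 3 microglia arrays, Cd8a on 1 and 3, and Cd8b1 on none. Icos, the gene called in the fit of all arrays, was lower in macrophages by a factor of at least 4.17 (adjusted p = 0.000177, limma). It passed the filter only through the microglia arrays and so had to differ. The summed level of the T cell list was 10.2 to 13.4 on the microglia arrays and 12.8 to 23.1 on the macrophage arrays, with Cd6 its brightest tested gene (difference -0.07). Of 10 B cell markers 4 were tested and none was called, and their summed level was 1.77 to 4.28 in microglia and 1.35 to 19.3 in macrophages, with a difference of -1.03 for Cd79b (adjusted p = 0.221). Of 7 markers of innate lymphoid cells 3 were tested, and 1, Il1rl1, was lower (3.69-fold, adjusted p = 0.0377); it lost that call with the animal as a block (0.0667) and in 6 of the 8 fits without 1 array.

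Endothelial markers were also brighter on the macrophage arrays. Of 14, 11 were tested and 5 were called higher (1 with the animal as a block, 6 without macrophage replicate 2), with a median difference of 3.81, or 2.95 without that array. Their median was 0.61, 5.43, 1.98 and -1.65 on macrophage replicates 1 to 4 and -4.12 to -3.16 on the microglia arrays, and their summed level was 29.0 to 985 and 7.62 to 33.6. Erg, an endothelial transcription factor, was at least 38.5-fold higher, or 15.2-fold without macrophage replicate 2 (adjusted p = 0.00941 with all arrays, limma), and it was not called with normexp background. Erg passed the filter only through the macrophage arrays and so had to differ. By the median, macrophage replicate 2 was highest for the cytotoxic and the endothelial list, and replicate 4 was the lowest macrophage array for both. Macrophage replicates 1 and 4 each measured 9 of the 13 member probes. What part endothelial RNA or other cells had in the members' differences was not tested. Without macrophage replicate 2 the 3 calls remained, at differences of 4.95 for Gzmb, 2.71 for Ncr1 and 3.07 for Klrd1. The endothelial list also stayed higher in that fit (median difference 2.95), so that the fit does not tell the members from that list.

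**Figure D4:**
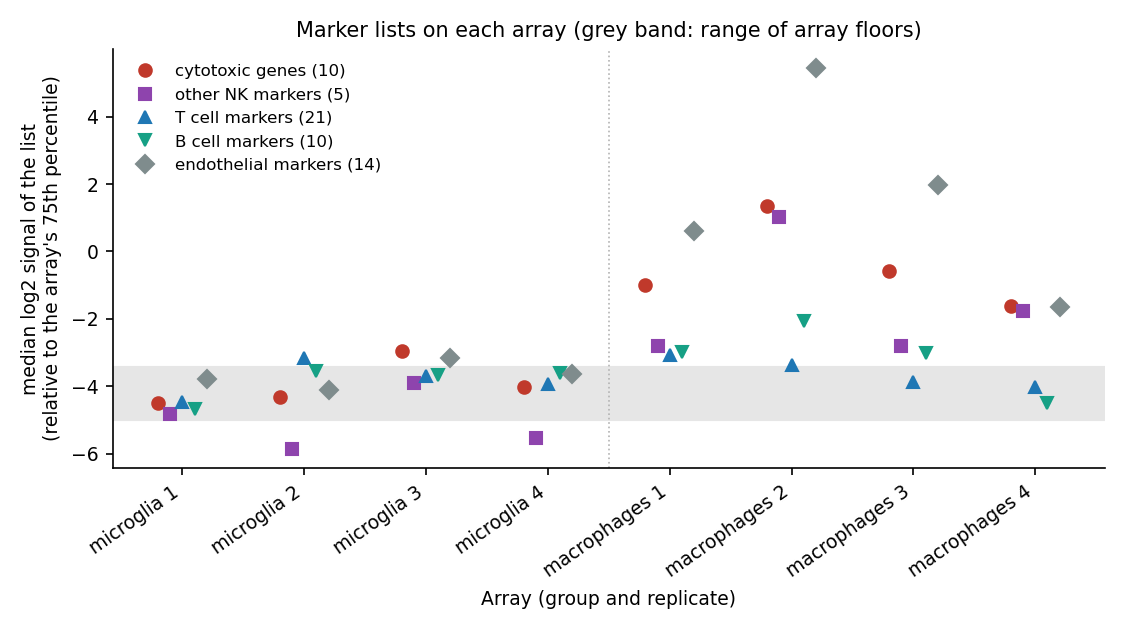
Median log2 signal (relative to the 75th percentile of each array, vertical axis) of the 10 cytotoxic genes and of 4 marker lists on each of the 8 arrays; list sizes are in the legend and the grey band spans the array floors. The cytotoxic genes lie at -4.49 to -2.96 on the microglia arrays and at -0.98, 1.35, -0.58 and -1.63 on macrophage replicates 1 to 4. The T cell list stays between -4.46 and -3.08 on all 8 arrays, and the endothelial list reaches 5.43 on macrophage replicate 2.

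Where called, the microglia markers and the monocyte and macrophage markers differed in the direction of the labels. That does not show that the samples held only those cells. Of 12 microglia markers, all tested, 8 were called lower in macrophages and none higher, or 5 lower in the fit blocked by animal. Crybb1 was lower by a factor of at least 58.4; it was well above background on all 4 microglia arrays and on no macrophage array, and passed the filter only through the former. Of 11 monocyte and macrophage markers tested, 6 were called higher (4 with the animal as a block) and none lower. The summed level of these markers overlapped between the groups. It was 949 to 1231 on the microglia arrays and 847 to 1621 on the macrophage arrays, lowest on macrophage replicate 2. Of 9 neutrophil markers tested none was called, or 1 higher with the animal as a block (Ly6g differed by 2.72, adjusted p = 0.0954, and Csf3r by -0.32). Of 10 dendritic cell markers tested 2 were called higher, or 1 in the fit blocked by animal. Called lower was 1, Siglech (2.24-fold, adjusted p = 0.0098, limma), but not with the animal as a block (0.0505). Siglech is also on the list of microglia markers and is counted in both.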

How the data were processed

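RNA of 4 resident microglia and 4 invading macrophage samples was extracted on columns, and mRNA was captured on beads, copied to cDNA, amplified by a global PCR and labelled with Cy3, per the labels' protocols. Such amplification can change the proportions of transcripts. Per the file headers, Agilent Feature Extraction 10.7.3.1 made the values, and probe positions are in build mm9. In each array's file the authors deposited processed signals, intensity values that are background-subtracted and not normalized between arrays. The authors also deposited a table of log2 values of the same arrays, whose scaling is not given in the sources used here; it was used as an alternative only.

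Control spots and spots marked as outliers were left out, spots of a probe were averaged as log2 intensity, and the 75th percentile of each array was subtracted. Probes were named by RefSeq accession, symbol or synonym (GRCm38.p6 gene table, names only), and 24220 of 55681 stayed unnamed. A probe was tested if well above background on at least 4 of 8 arrays. A gene with several tested probes was represented by the brightest on average, which sets aside the others. lmFit and eBayes of limma 3.58.1 (R 4.3.3, two-sided, Benjamini-Hochberg over 13221 genes) compared the groups, after a test on simulated data. Tables were made with pandas 2.3.3 and numpy 2.4.6 in Python 3.11.15. Where only some arrays of the dimmer group were well above background, signals under the floor were raised to it before a fold was taken.

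The members and gene lists were chosen with earlier results of these data known. Named genes were all members, the 2 brightest and the 2 with the smallest adjusted p of each pathway list, the brightest and the smallest adjusted p of each marker list, the 10 genes most correlated with the members, and ligands, inhibitors and adaptors of members; other list genes named beside a count, such as Gzmk, Gzmm, Ifng, Klra9, Klrb1f, Il18, Il2rb, Xcl1 and the Cd3 and Cd8 genes, were chosen after their values were seen.

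The labels give each sample's animal, which pairs them. Their deviations from the means of their groups correlated at 0.0708, 0.115, 0.0869 and -0.000825 within animals A to D. For animals A, B and C, but not D, the microglia array correlated most with the macrophage array of the same animal. The fit without the animal is reported, with the blocked fit beside it where it changes a call. Alternatives were normexp background, 3 other scalings, the deposited table, other filters, the mean of probes, animal and slide blocks, single slides, trend moderation and each array left out. Signals raised to the array floor before the fit were added after the data were seen.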

Additional observations from a re-analysis of the deposited data

Results flagged for a closer look

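In 19 groups of 4 arrays, each a member probe in microglia or macrophages, the highest or lowest array was compared with the others by its gap over the range of the group, against Dixon's critical value, after signals under the array floor had been raised to it. In 3 groups an array stood apart. Chance marks about 1 in 20 where groups are independent. Here the groups shared the same arrays and dim signals were raised to a floor, so that rate need not hold. The Gzma probe measured 1.74 on macrophage replicate 2, with a ratio of 0.881, and the same ratio on the signals as measured. The first Eomes probe measured 0.87 on macrophage replicate 2 and -1.45 on microglia replicate 3, with ratios of 0.849 and 0.942. On the signals as measured these were 0.803 and 0.715, below the critical value, so that both rest on raising dim signals to the floor. As measured, 2 groups had an array that stood apart: that of Gzma, and the second Nkg7 probe in microglia, which measured -1.92 on replicate 1 (0.955 as measured, 0.727 with dim signals raised).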

How the results depend on the processing

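The number of members called higher was 3, and it was 2 to 4 without 1 array. It was 0 where every array had to be well above background, which leaves 3 members to test, 1 on the slide with 3 arrays and 0 on that with 5, where fewer arrays entered. Of all genes, 398 were called higher and 568 lower. Higher counts were 682 with median centring, 239 without a filter, 236 with the animal as a block (the pairing), 216 with the slide as a block, 44 and 4 within the slides, 688 over all probes, and 168 to 1248 without 1 array, the highest without macrophage replicate 2. Lower counts were 854 with the percentile over detected probes, 345 with the filter on all arrays, 373 with the animal as a block, 169 and 93 within the slides, 1206 over all probes, and 324 to 965 without 1 array. The share of calls that were higher was 41.2%, against 59.3% with median centring and 28.8% with the percentile over detected probes, where the median difference of all genes was 0.25 and -0.12 in place of 0.04. The animal block changed no call of a member. List counts and named genes that it changed carry the blocked value beside them. The fit without macrophage replicate 2 called 3 of the other granule genes higher. It called 2 ligands higher and 1 lower, 2 cytokines lower, 3 of their receptors higher and 1 lower. Of the other transcription factors it called 2 higher and 1 lower, and of the innate lymphoid markers 1 higher and 1 lower. For markers of other cells it called 1 neutrophil marker higher, 9 microglia markers lower and 7 monocyte and macrophage markers higher. Prf1 ran from -0.00969 to 0.78 without 1 array, the lowest without macrophage replicate 2. Tbx21 ran from -0.11 to 0.10, with 0.09 without macrophage replicate 1, and was 0.19 with median centring. The cause of these reversals was not tested. Signal over background limits what can be said of Gzma, Klrk1, Klrb1c and Eomes, which were not measured in most microglia samples. It also limits the called genes Gzmb, measured on 0 of the 4 microglia arrays, and Ncr1, measured on 1.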
